A study of Mus musculus with 6 samples.

Results

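The genes described here are 10 members of the BCL2 family, which controls whether a cell enters apoptosis through its mitochondria. They are the anti-apoptotic genes Bcl2, Bcl2l1 and Mcl1, the pro-apoptotic effectors Bax and Bak1, and the pro-apoptotic BH3-only genes Bad, Bid, Bbc3, Pmaip1 and Bcl2l11. The list was set by gene symbol, and all 10 were found among the 11844 genes for which the deposited table lists a transcript, through 21 transcripts in all. RNA was sequenced from C2C12 cells, a mouse myoblast line that fuses into myotubes when the serum of its medium is lowered. In the siNC group, 3 libraries came from cells transfected with NC siRNA, a negative control, and in the siCNN3 group 3 libraries came from cells transfected with CNN3 siRNA, which targets the actin-binding protein calponin 3. The sample labels give both groups the cell type mouse myotube, while the study calls the sequenced cells differentiating myoblasts, and neither says which of its CNN3 siRNAs the sequenced cells received. Nothing says that the 3 libraries of a group came from separate cultures, so the p-values measure only the spread between these libraries, which may be technical.

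Proteins of the BCL2 family meet at the outer membrane of mitochondria. BAX and BAK open this membrane and release cytochrome c, which starts the caspase cascade, and BCL2, BCL-XL (encoded by Bcl2l1) and MCL1 hold them in check. BH3-only proteins are sensors of stress, which bind the anti-apoptotic members or act on BAX and BAK directly through a short helix, the BH3 motif. In muscle, some myoblasts die as others differentiate, and myotubes are known to resist apoptosis.

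The part of the coding sequence that encodes the BH3 motif is shown for the members, because it is what binds the family together. The pattern searched for was a leucine codon, 2 codons of any kind, a codon for alanine, isoleucine, leucine, methionine or valine, a codon for glycine, alanine or serine, and an aspartate codon. It was searched in the listed transcript with the highest mean level of each member, in the GENCODE transcripts of GRCm38. It occurred in all 10 members, which is no test, since the pattern was written for their BH3 motif. The pattern also occurred in 14.6% of the 11810 genes whose coding sequence was read in this way. It occurred at 1 place in 9 members and at 2 places in Pmaip1, whose sequence is not shown. Each line gives 9 codons from the leucine onward, 5′ to 3′ on the gene's strand, with the leucine and aspartate codons in capitals.
Bcl2, chr1:106712575-106712601, minus strand, exon 1 of 2: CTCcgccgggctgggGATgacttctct
Bcl2l1, chr2:152829697-152829723, minus strand, exon 2 of 3: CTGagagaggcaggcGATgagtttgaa
Mcl1, chr3:95659436-95659462, plus strand, exon 1 of 3: CTGcggcgcgtgggcGACggcgtgcag
Bax, chr7:45465997-45466023, minus strand, exon 3 of 6: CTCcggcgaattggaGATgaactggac
Bak1, chr17:27022531-27022557, minus strand, exon 4 of 6: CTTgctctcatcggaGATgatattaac
Bad, chr19:6950792-6950818, plus strand, exon 3 of 4: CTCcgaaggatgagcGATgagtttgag
Bid, chr6:120897289-120897315, minus strand, exon 4 of 6: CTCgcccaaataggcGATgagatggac
Bbc3, chr7:16313773-16313799, plus strand, exon 3 of 4: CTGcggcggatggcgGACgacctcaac
Bcl2l11, chr2:128147150-128147176, plus strand, exon 3 of 4: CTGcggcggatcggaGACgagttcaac

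Levels are given as FPKM, fragments per kilobase of transcript, scaled to the number of mapped fragments, summed over the transcripts of a gene. FPKM is a level per length, so genes can be compared with each other. The number of reads is not given, so the depth and the counting error are unknown. Differences are log2 fold changes of FPKM + 1, siCNN3 minus siNC, a scale that understates the change of low genes. A gene was called when its p from limma, adjusted over 11602 tested genes by the Benjamini-Hochberg method, was below 0.05. By this rule 200 genes, or 1.72%, were called higher in siCNN3 and 39 genes, or 0.336%, were called lower, so that 83.7% of the called genes were higher, against 68.2% after quantile normalization. These counts moved with single libraries, from 16 higher and 4 lower genes without siNC replicate 3 to 440 and 158 without siCNN3 replicate 3. Cnn3, the targeted gene, measured 62.8, 61.4 and 62.8 FPKM across the siNC libraries, against 19.0, 39.2 and 25.6 FPKM in siCNN3, that is, a difference of -1.19 ± 0.242 (SE) on the log2 scale with an adjusted p of 0.0670. Of the myoblast and myotube markers, 12 of 14 were listed, Ttn and Myh8 were not among the listed genes, and Ckm was at most at 0.911 FPKM. The summed FPKM of these markers was 184 to 218 in siNC and 120 to 133 in siCNN3. Of 12 blood and immune cell markers, 10 were not listed, and the 2 that were, Cd68 and Lyz2, summed to 4.73 to 10.2 FPKM in siNC and 2.81 to 4.04 FPKM in siCNN3. Of 16 interferon response markers, 11 were called higher, with a median log2 fold change of 4.61 over the list and a sum of 47.7 to 508 FPKM in siNC and 2459 to 4887 FPKM in siCNN3. Those with the largest change were Cxcl10 (6.30), Ifit3 (5.88) and Ccl5 (5.41). Of the muscle markers, 4 were called lower, led by Acta1 (-2.12), Mylpf (-1.88) and Tnnt3 (-1.50), and of 9 markers of fibroblasts, fat and endothelium, 3 were listed and Fabp4 (-1.45) was called lower. With 1 library left out, the number of interferon markers called higher ran from 1, without siNC replicate 3, to 13, without siNC replicate 2, and was 2, 3 and 4 without siCNN3 replicate 2, siCNN3 replicate 1 and siNC replicate 1. The number of muscle markers called lower ran from 1, without siNC replicate 3 or siCNN3 replicate 2, to 4, and was 2 without siCNN3 replicate 1. Myf5, a myoblast gene of that list chosen after its values were seen, leaned the other way, at 3.55, 5.64 and 4.84 FPKM for siNC and 12.95, 11.4 and 5.40 FPKM for siCNN3 (log2 fold change 0.88, adjusted p = 0.239, limma), and was called higher without siCNN3 replicate 3 (adjusted p = 0.0301). Of the 7 genes called and named here, only Ccl5 and Acta1 stayed called with each library left out in turn. These markers differ between the same groups as Bbc3, Bid and Pmaip1 below, and their part in those differences was not tested.

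None of the 10 members was called in either direction by limma, where 2.06% of all tested genes were called. At an unadjusted p below 0.05 there were 2 members, Bbc3 and Pmaip1, both higher in siCNN3, where 9.94% of all tested genes were higher at that level and 6.14% were lower. The values of the groups did not overlap for 3 members, the BH3-only genes Bbc3, Bid and Pmaip1, all higher in siCNN3, while 13.8% of all tested genes had every siCNN3 library above every siNC library and 9.34% had the reverse. The log2 fold change was above 0 for 8 of the 10 members and for 54% of all tested genes. Its median was 0.22 over the 10 members and 0.51 over the 5 BH3-only members, against 0.03 over all tested genes. For single genes, an exact permutation test of the 6 libraries has 0.1 as its smallest two-sided p, so it cannot pass 0.05 in this design.

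**Figure D1:**
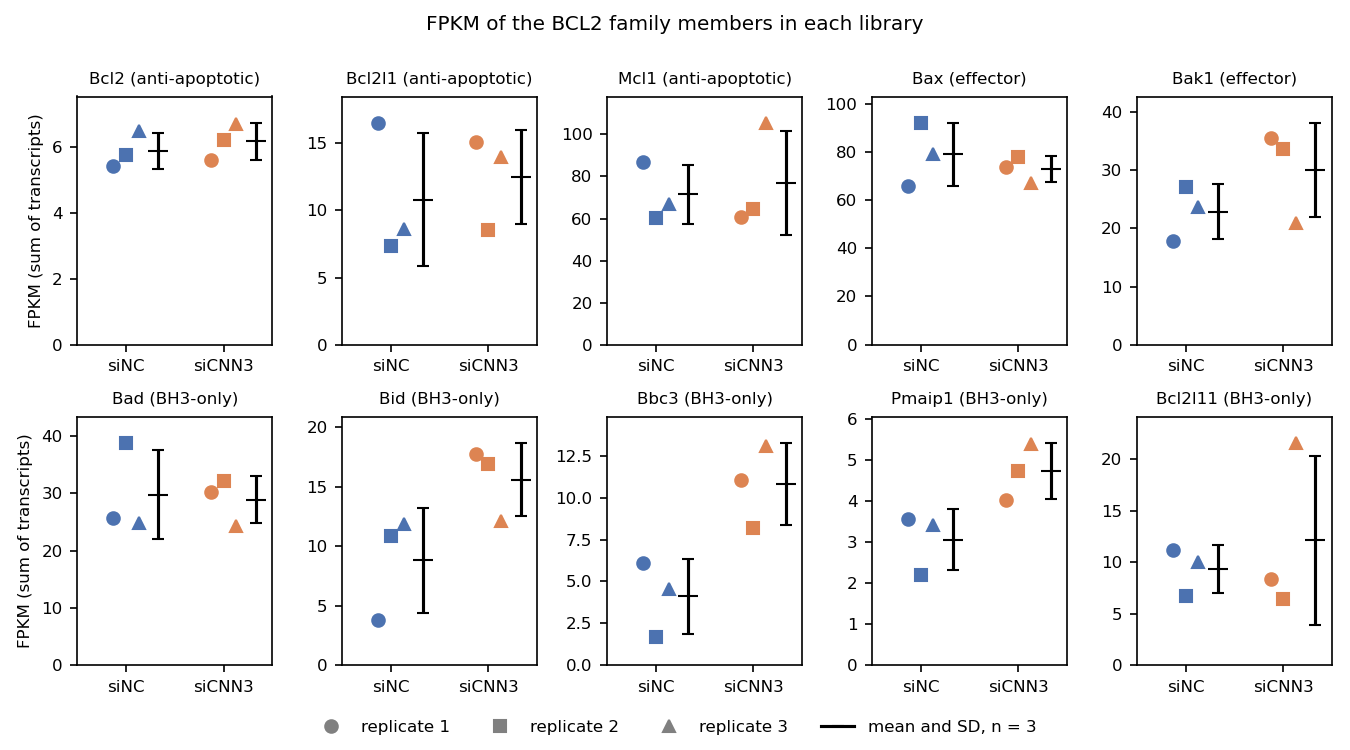
FPKM of each BCL2 family member (y axis, each panel from 0 on its own scale) in the 3 siNC libraries (blue) and the 3 siCNN3 libraries (orange), with the replicate given by the symbol and the mean and SD (n = 3) in black. The 3 siCNN3 values lie above the 3 siNC values for Bid, Bbc3 and Pmaip1 only, and siCNN3 replicate 3 has the highest value of Mcl1, 105 FPKM, and of Bcl2l11, 21.6 FPKM.

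In siNC cells the order of the members by level was Bax, Mcl1, Bad, Bak1, Bcl2l1, Bcl2l11, Bid, Bcl2, Bbc3 and Pmaip1. Their mean levels ran from 79.0 FPKM for Bax to 3.06 FPKM for Pmaip1. Bax and Mcl1 overlapped in their siNC values, as did Bad and Bak1, but the lowest Mcl1 value was above the highest Bad value and the lowest Bak1 value was above the highest Bcl2l1 value. From Bcl2l1 down to Pmaip1, each gene overlapped with the next. Over the 6 libraries, Bax and Mcl1 had higher means than 93% of tested genes, while Pmaip1 was above 23.8% of them.

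Among the anti-apoptotic members, Mcl1 made up most of the level. MCL1 is a short-lived protein that binds BAK and several BH3-only proteins. Mcl1 (chromosome 3 of GRCm38, 95658788 to 95663176) measured 87.0, 60.4 and 67.0 FPKM across the siNC libraries, against 60.6, 64.4 and 105 FPKM in siCNN3. The groups overlapped, and siCNN3 replicate 3 and siNC replicate 1 were the highest libraries. Its log2 fold change was 0.07 with a 95% confidence interval of -0.50 to 0.65 (adjusted p = 0.910, limma), and it was -0.17 without siCNN3 replicate 3. Bcl2l1 (chromosome 2, 152780668 to 152831728), whose long product BCL-XL restrains BAX, measured 16.5, 7.33 and 8.59 FPKM across the siNC libraries, against 15.1, 8.52 and 14.0 FPKM in siCNN3. All siCNN3 values lay within the siNC range. Its log2 fold change was 0.24, with an interval of -0.54 to 1.02 (adjusted p = 0.765, limma). It ran from 0.025 without siNC replicate 2 to 0.56 without siNC replicate 1. Bcl2 (chromosome 1, 106538178 to 106714274), the founding member of the family, measured 5.41, 5.75 and 6.49 FPKM across the siNC libraries, against 5.60, 6.21 and 6.70 FPKM in siCNN3. Bcl2 varied little between libraries, and its groups overlapped. For Bcl2 the log2 fold change was 0.06 with an interval of -0.28 to 0.40 (adjusted p = 0.874, limma).

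Of the effectors, Bax was high in every library. Bax (chromosome 7, 45461697 to 45466898) measured 65.9, 91.8 and 79.2 FPKM across the siNC libraries, against 73.6, 77.8 and 67.1 FPKM in siCNN3. Its siCNN3 values lay inside the siNC range, and its log2 fold change was -0.10 with an interval of -0.45 to 0.24 (adjusted p = 0.765, limma). Gm45808, a protein coding gene model of the annotation that is not among the listed genes, overlaps Bax by 915 bases on the same strand, so reads there may come from either. Bak1 (chromosome 17, 27019810 to 27029009), which encodes BAK, an effector that sits in the mitochondrial membrane also in healthy cells, measured 17.8, 27.2 and 23.7 FPKM across the siNC libraries, against 35.7, 33.8 and 20.9 FPKM in siCNN3. For Bak1, 2 siCNN3 libraries were above all siNC libraries and siCNN3 replicate 3 was not. Its log2 fold change was 0.36 with an interval of -0.22 to 0.94 (adjusted p = 0.519, limma), and with 1 library left out it ran from 0.20 without siNC replicate 1 (adjusted p = 0.753) to 0.60 without siCNN3 replicate 3 (adjusted p = 0.133), with 0.23 without siCNN3 replicate 1. Ggnbp1 lies on the opposite strand across 9200 bases of Bak1, and whether the libraries kept the strand is not given, so reads of the pair may not be told apart.

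The largest differences were found among the BH3-only genes. Bbc3 (chromosome 7, 16308393 to 16318205) encodes PUMA, which binds all anti-apoptotic members and is known as a target of p53, FOXO3 and the endoplasmic reticulum stress factor CHOP. It measured 6.09, 1.66 and 4.55 FPKM across the siNC libraries, against 11.1, 8.23 and 13.1 FPKM in siCNN3. Every siCNN3 library was above every siNC library, with siNC replicate 2 the lowest. The mean was 4.10 ± 2.25 FPKM for siNC and 10.8 ± 2.46 FPKM for siCNN3 (SD, n = 3), a ratio of 2.64. The log2 fold change of 1.30 (standard error 0.372, interval 0.42 to 2.19) ranked 812th of 11602 genes by p (unadjusted p = 0.0102, adjusted p = 0.145, limma). It lay between 0.89 and 1.60 with 1 library left out, and was not called in any of these fits (adjusted p of 0.125 to 0.388, limma). In RNA of whole cultures, a higher level in each cell and more cells with a high level cannot be told apart.

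Bid (chromosome 6, 120891930 to 120916853), whose product links death receptors to mitochondria once caspase-8 has cut it, measured 3.74, 10.9 and 11.8 FPKM across the siNC libraries, against 17.8, 16.9 and 12.1 FPKM in siCNN3. The groups did not overlap, but siCNN3 replicate 3, at 12.1 FPKM, was close to siNC replicate 3, and siNC replicate 1 was far below the other siNC libraries. The mean was 8.80 ± 4.41 FPKM for siNC and 15.6 ± 3.05 FPKM for siCNN3 (SD, n = 3). Its log2 fold change was 0.87 with an interval of -0.05 to 1.79 (adjusted p = 0.333, limma), and fell to 0.41 without siNC replicate 1. Bcl2l13 overlaps Bid by 913 bases on the opposite strand, and its log2 fold change was 0.03. Gm44260, an unclassified gene model that is not among the listed genes, overlaps Bid by 2094 bases on the same strand. Pmaip1, on chromosome 18, encodes NOXA, which binds MCL1 and favours its degradation. It measured 3.57, 2.20 and 3.41 FPKM across the siNC libraries, against 4.03, 4.74 and 5.41 FPKM in siCNN3. The groups of Pmaip1 did not overlap, although 4.03 and 3.57 FPKM were close. Its mean was 3.06 ± 0.747 FPKM for siNC and 4.73 ± 0.686 FPKM for siCNN3 (SD, n = 3), while the log2 fold change was 0.51 with an interval of 0.05 to 0.97 (unadjusted p = 0.0358, adjusted p = 0.269, limma).

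The remaining BH3-only genes overlapped between the groups. Bcl2l11 (chromosome 2, 128126038 to 128162547) encodes BIM, which is induced when growth factors are withdrawn. It measured 11.2, 6.70 and 10.0 FPKM across the siNC libraries, against 8.38, 6.45 and 21.6 FPKM in siCNN3. The siCNN3 group thus held both the lowest and the highest library, and the log2 fold change of 0.20 (interval -0.79 to 1.19, adjusted p = 0.850, limma) turned to -0.28 without siCNN3 replicate 3. Bad (chromosome 19, 6941861 to 6951899), which encodes a protein held inactive by AKT phosphorylation and 14-3-3 binding, measured 25.7, 38.7 and 24.8 FPKM across the siNC libraries, against 30.3, 32.2 and 24.3 FPKM in siCNN3. Its log2 fold change was -0.02 with an interval of -0.50 to 0.46 (adjusted p = 0.971, limma). Gpr137 overlaps Bad by 620 bases on the opposite strand.

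**Figure D2:**
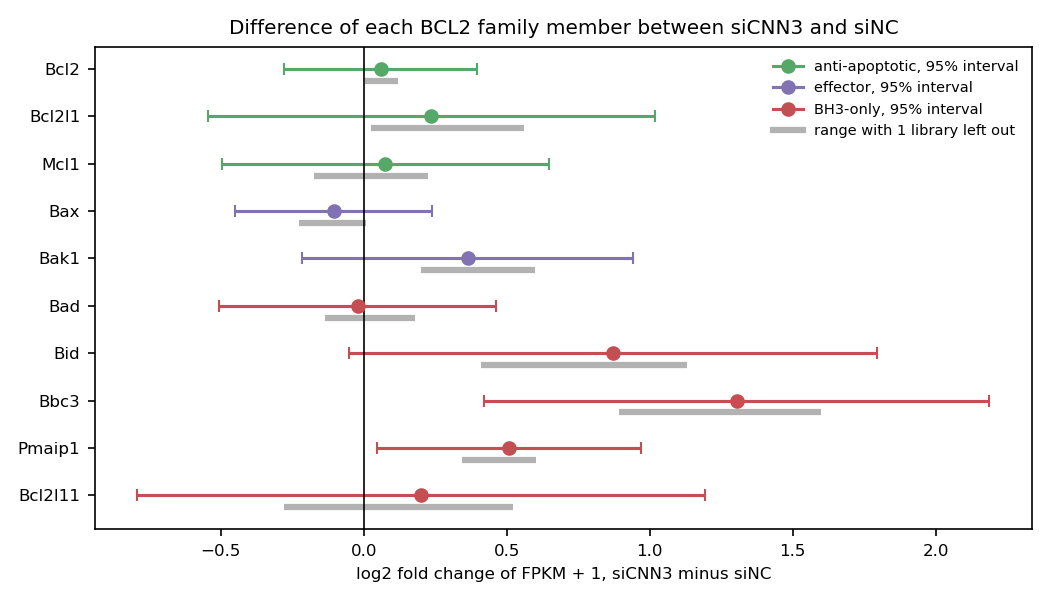
Log2 fold change of FPKM + 1 (x axis, siCNN3 minus siNC) of each BCL2 family member, with points at the limma estimate, bars for its 95% confidence interval (n = 3 libraries a group) and grey bars for the range when 1 library is left out. The intervals of Bbc3 (0.42 to 2.19) and Pmaip1 (0.05 to 0.97) lie above 0 before adjustment for the number of genes tested, and those of the other 8 members include 0.

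To set pro- against anti-apoptotic members, their FPKM were added in each library. These sums are a description of the chosen members and were not tested. The 7 pro-apoptotic members summed to 134, 179 and 158 FPKM in siNC and to 181, 180.1 and 164 FPKM in siCNN3. The 3 anti-apoptotic members summed to 109, 73.5 and 82.0 FPKM in siNC and to 81.3, 79.2 and 126 FPKM in siCNN3. Both sums overlapped between the groups. The ratio of pro- to anti-apoptotic FPKM was 1.23, 2.44 and 1.92 in siNC and 2.22, 2.28 and 1.30 in siCNN3, with means of 1.86 ± 0.605 and 1.93 ± 0.546 (SD, n = 3). The log2 difference of this ratio was 0.07, and with 1 library left out it ran from -0.21, without siNC replicate 1, to 0.33, without siCNN3 replicate 3. It was also below 0 without siCNN3 replicate 1 (-0.058), without siCNN3 replicate 2 (-0.074) and with the wider family added (-0.024), and it was 0.29 without siNC replicate 2 and 0.32 as a mean of log2 values. The log2 difference of the pro-apoptotic sum was 0.17, between 0.059 without siNC replicate 1 and 0.27 without siNC replicate 2. That of the anti-apoptotic sum was 0.10, between -0.12 without siCNN3 replicate 3 and 0.26 without siNC replicate 1, and -0.019 without siNC replicate 2. The difference of the ratio was thus smaller than the spread within a group. The lowest ratios were those of siNC replicate 1 and siCNN3 replicate 3, the same libraries in which the anti-apoptotic sum and Mcl1 were highest. Mcl1 was 74.6% to 83.6% of the anti-apoptotic sum in all libraries.

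The 5 BH3-only genes summed to 50.4, 60.2 and 54.6 FPKM in siNC and to 71.6, 68.5 and 76.5 FPKM in siCNN3, with no overlap. In siCNN3 replicate 3 this sum held 21.6 FPKM of Bcl2l11, which was at 6.45 to 11.2 FPKM in the other libraries. Bad, in the sum, had a log2 fold change of -0.02. The BH3-only gene Bmf, described below, is not a member and is outside the sum, and its log2 fold change was -0.93. The effectors summed to 83.7, 119 and 103 FPKM in siNC and to 109, 112 and 88.0 FPKM in siCNN3, with overlap. Bax accounted for 49.1%, 51.3% and 50.3% of the pro-apoptotic sum in siNC and for 40.7%, 43.2% and 40.8% in siCNN3, so that its share was lower in every siCNN3 library. The shares of Bad and of Bbc3 in the BH3-only sum overlapped, at 45.4% to 64.4% and 2.76% to 12.1% in siNC and at 31.7% to 47.0% and 12.0% to 17.2% in siCNN3. Relative to the anti-apoptotic sum, the BH3-only sum still overlapped, with ratios of 0.462, 0.819 and 0.665 in siNC and 0.881, 0.865 and 0.607 in siCNN3. The ratio of Bax to Bcl2, often used as a summary of this balance, was 12.2, 15.97 and 12.2 in siNC and 13.2, 12.5 and 10.0 in siCNN3. The ratio of Bbc3 to Mcl1, a pair chosen after its values were seen, was 0.0700, 0.0274 and 0.0680 in siNC and 0.183, 0.128 and 0.124 in siCNN3, with no overlap. The ratios of Bid to Mcl1 and of Bax to Mcl1, computed alongside, overlapped between the groups.

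**Figure D3:**
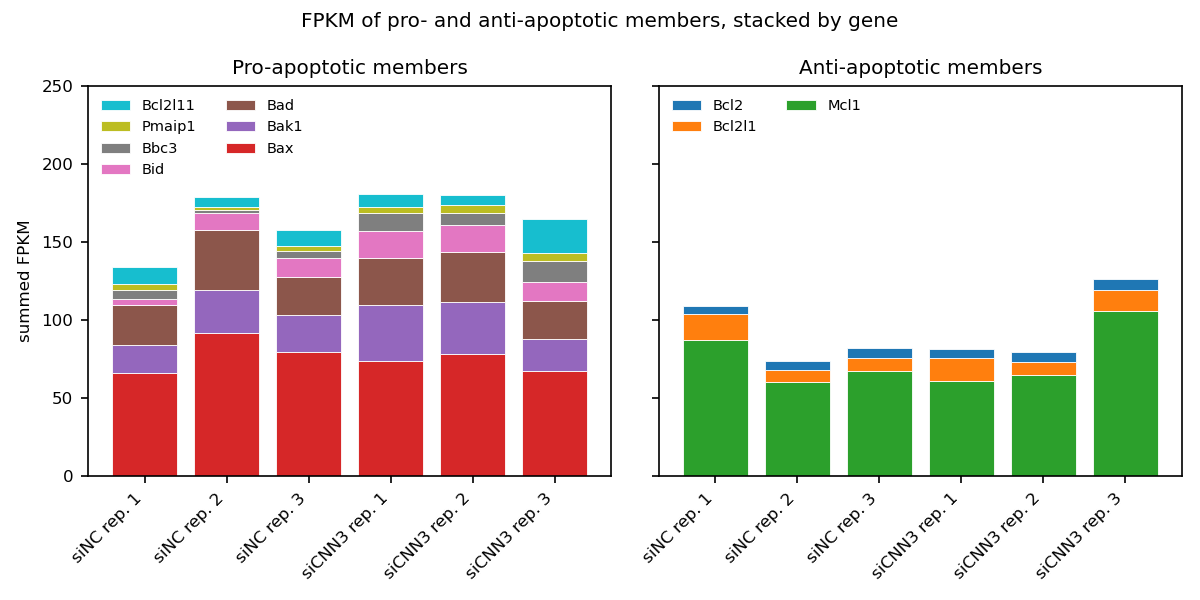
Summed FPKM (y axis, from 0) of the 7 pro-apoptotic members (left) and the 3 anti-apoptotic members (right) in each of the 6 libraries, stacked by gene. Bax and Mcl1 form the largest blocks, the anti-apoptotic sum is highest in siCNN3 replicate 3 (126 FPKM) and siNC replicate 1 (109 FPKM), and the BH3-only blocks together are larger in each siCNN3 library than in any siNC library.

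The 21 transcripts of the members are all annotated as protein coding. Of the 10 members, 5 had a single listed transcript (Bcl2, Mcl1, Bid, Bbc3 and Pmaip1), so their gene level is that transcript's. Of the 19 transcripts that passed the filter, 0 were called by limma over 21658 transcripts, of which 0.540% were called in the whole table, and 2 had an unadjusted p below 0.05, both higher, as did 6.80% of all tested transcripts. These were the transcript of Bbc3 and Bad-201. The groups did not overlap for 5 of the 19, with siCNN3 higher for 4 (10.4% of all tested transcripts) and lower for 1, Bad-204 (7.54%). Bad-201 measured 3.15, 4.20 and 2.51 FPKM across the siNC libraries, against 7.54, 6.31 and 5.19 FPKM in siCNN3. Its log2 fold change was 0.78 (unadjusted p = 0.0137, adjusted p = 0.287, limma), and its groups did not overlap. Bad-204 was low, with 0.295, 0.885 and 1.59 FPKM across the siNC libraries, against 0.203, 0.284 and 0.0579 FPKM in siCNN3 (log2 fold change -0.65, adjusted p = 0.487, limma). Bad-202, the main transcript of the gene, measured 21.0, 33.7 and 20.5 FPKM across the siNC libraries, against 21.5, 24.6 and 18.1 FPKM in siCNN3, and its log2 fold change was -0.19 (adjusted p of 0.805 by limma). Bad-201 therefore made up 11.1% of Bad FPKM on average in siNC and 22.0% in siCNN3. For Bax, Bax-201 carried 68.3% to 82.5% of the gene's FPKM, and Bax-203 was at 5.69 FPKM in siNC replicate 1 against 14.3 to 21.3 FPKM in the other libraries. For Bcl2l1, Bcl2l1-202 carried 58.1% to 76.0%. In Bcl2l11, Bcl2l11-203 was the transcript that varied most, from 0.596 FPKM in siNC replicate 2 to 9.29 FPKM in siCNN3 replicate 3, and Bcl2l11-205 was highest in that library as well, at 12.3 FPKM against 5.67 to 7.31 FPKM elsewhere. How the estimates split reads between transcripts of a gene is not known, so shares of transcripts are less certain than gene sums.

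Of 17 other genes of the family or of related BH3-bearing and mitochondrial proteins, 10 were listed and tested. Those not listed were Bcl2a1a, Bcl2a1b, Bcl2a1d, Bcl2l10, Bik, Hrk and Bcl2l14. By limma 0 of the 10 were called, except that leaving out siCNN3 replicate 3 gave 1 call higher, Bcl2l15 (adjusted p = 0.0482), and 1 lower, Bmf (adjusted p = 0.0411). With all libraries 1 was higher at an unadjusted p below 0.05, as were 9.94% of all tested genes, and the median log2 fold change was 0.03, as it was over all tested genes, and ran from -0.14 without siNC replicate 1 to 0.19 without siNC replicate 3. The gene below that p, Bcl2l15, was listed at 0, 0.175 and 0 FPKM across the siNC libraries, against 1.58, 0.867 and 0.613 FPKM in siCNN3 (log2 fold change 0.91, unadjusted p = 0.0042, adjusted p = 0.0974, limma). It was low in every library, and a listed 0 can be a failed estimate. Bmf, a BH3-only gene whose product is tied to the cytoskeleton, leaned the other way, with 4.43, 2.35 and 2.59 FPKM across the siNC libraries, against 0.434, 0.649 and 2.94 FPKM in siCNN3 (log2 fold change -0.93, adjusted p = 0.326, limma). Here siCNN3 replicate 3 lay within the siNC range. Bok, an effector related to Bax, measured 8.85, 16.9 and 9.96 FPKM across the siNC libraries, against 9.10, 8.69 and 3.79 FPKM in siCNN3 (log2 fold change -0.68, adjusted p = 0.396, limma). Bcl2l2, which encodes the anti-apoptotic BCL-W, measured 8.97, 6.39 and 8.50 FPKM across the siNC libraries, against 6.14, 7.41 and 20.9 FPKM in siCNN3. As with Mcl1 and Bcl2l11, its highest library was siCNN3 replicate 3. Bnip3 and Bnip3l, receptors for the removal of mitochondria by autophagy, had log2 fold changes of 0.02 and -0.21, those of Bnip1 and Bnip2 were 0.16 and 0.06, and those of Bcl2l12 and Bcl2l13 were -0.01 and 0.03.

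Genes that act around the family at mitochondria were not called with all libraries and the main scaling. Of 13 genes for mitochondrial partners of BAX and BAK, 0 were called by limma and 3 were higher at an unadjusted p below 0.05, a level at which 9.94% of all tested genes were higher. The lowest p was that of Vdac3, a channel of the outer membrane, at 76.6, 92.7 and 94.9 FPKM in siNC and 152, 149 and 121 FPKM in siCNN3 (log2 fold change 0.67, adjusted p = 0.0719, limma). Vdac3 was called higher without siCNN3 replicate 3 (adjusted p = 0.0296) and with median-of-ratios scaling (adjusted p = 0.0414). Of 17 tested genes of the apoptosome and the steps after it, 0 were called, or 1 higher without siCNN3 replicate 3, and 2 were higher at an unadjusted p below 0.05, a share near those 9.94%. Among them was Cycs, the gene of cytochrome c, with a difference of 0.75 on the log2 scale (adjusted p = 0.232, limma). The median log2 fold change of this list was -0.11, but 0.12 without siNC replicate 2, 0.090 without siCNN3 replicate 3 and 0.040 with a filter at 5 FPKM.

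Of 17 tested genes of transcription factors that act on BH3-only genes, 5 were called higher, where 1.72% of all tested genes were, and 0 lower, and the median log2 fold change was 0.21. With 1 library left out, this median ran from 0.18 without siCNN3 replicate 1 to 0.45 without siNC replicate 2. Ddit3, which encodes CHOP, measured 122, 72.9 and 71.2 FPKM across the siNC libraries, against 438, 379 and 570.1 FPKM in siCNN3. All siCNN3 libraries were far above the siNC libraries, and the log2 fold change was 2.40 ± 0.245 (SE, adjusted p = 0.0099, limma). Atf3, a stress-induced factor, measured 9.61, 6.35 and 9.32 FPKM across the siNC libraries, against 32.2, 34.0 and 46.1 FPKM in siCNN3 (log2 fold change 2.03, adjusted p = 0.0099, limma). Neither Ddit3 nor Atf3 was called without siNC replicate 3, with adjusted p of 0.0650 and 0.0580. Myc and Atf4 were also called, with log2 fold changes of 0.91 (adjusted p = 0.0158, limma) and 1.03 (adjusted p = 0.0428, limma). Myc lost its call in 3 of the 6 fits with 1 library left out (adjusted p up to 0.101, limma). Atf4 lost its call in 5 of these 6 fits (adjusted p up to 0.164, limma), and in 8 of all 14 alternatives. Without siNC replicate 3, 0 of the 17 were called.

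Trp53, the gene of p53, measured 40.0, 72.7 and 64.6 FPKM across the siNC libraries, against 112, 79.8 and 45.5 FPKM in siCNN3, with overlap (log2 fold change 0.37, adjusted p = 0.661, limma). Of 18 tested p53 targets outside the family, 3 were called higher and 0 lower, where 1.72% and 0.336% of all tested genes were, and the median log2 fold change was 0.40. They were Plk2, a kinase (0.85, adjusted p = 0.0152, limma), Mdm2, the ligase that degrades p53 (0.84, adjusted p = 0.0374), and Gadd45a, a growth arrest gene (0.74, with an adjusted p just under 0.05). Gadd45a lost its call in 12 of 14 alternatives, among them all 6 with 1 library left out, and Mdm2 in 8, and neither was called with median-of-ratios scaling or quantile normalization, where 1 of the 18 was. These calls were fragile, since 0 of the 18 were called higher when replicate 1 or 3 of siNC, or replicate 1 or 2 of siCNN3, was left out, while without siCNN3 replicate 3 there were 3 higher (Plk2, Mdm2 and Sesn2) and 1 lower (Sesn1). For Cdkn1a, the cell cycle inhibitor p21, picked with its values in view, the log2 fold change was 0.17 (adjusted p = 0.719, limma). Foxo3 and Foxo1, genes of factors that act on Bbc3 and Bcl2l11, had log2 fold changes of -0.28 and 0.07 and were not called. Among 24 tested kinases, proteases and ligases that act on BCL2 family proteins, Trib3 alone was called, where 2.06% of all tested genes were. Trib3, whose product is a pseudokinase that binds AKT and is induced by CHOP, measured 3.00, 4.42 and 4.68 FPKM across the siNC libraries, against 51.7, 45.1 and 20.4 FPKM in siCNN3 (log2 fold change 2.91, adjusted p = 0.0144, limma). Leaving out replicate 1 or 3 of siNC, or replicate 1 or 2 of siCNN3, took the call of Trib3 away as well, the adjusted p then being 0.0732 at most.

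**Figure D4:**
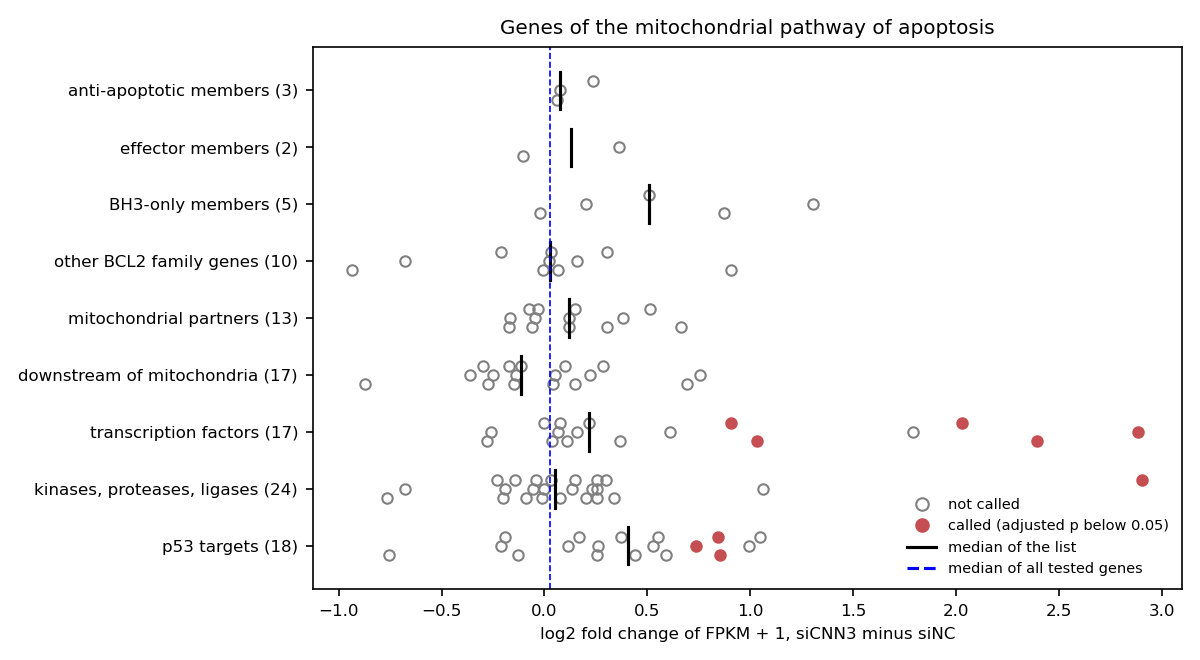
Log2 fold change of FPKM + 1 (x axis, siCNN3 minus siNC) of each tested gene of 9 lists (number tested in brackets; vertical position within a list has no meaning), with called genes filled in red, the median of each list as a black bar and the median of all tested genes, 0.03, as a dashed line. No member or other gene of the family is called, while 5 transcription factor genes, Trib3 and 3 p53 targets lie to the right as called genes.

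Promoters of the members were searched for motifs of the factors named above, on both strands, in windows of RefSeq (GRCm38.p6) from 250 bases before to 50 bases after each annotated start. Windows were found for 9 of the 10 members, with 3 annotated starts each for Bbc3 and Bcl2l1 and 2 each for Bad and Bcl2l11. The FOXO motif TGTTTAC was found in windows of Bbc3 and Bcl2l11, and in 3.65% of the 32851 windows of all genes, or in a window of 4.05% of the 27025 genes. Shares of genes are what the count of members is set against, since a gene can have several windows. Both matches are shown with the motif in capitals, and the one in Bcl2l11 is read on the opposite strand.
Bbc3, chr7:16310086-16310108, plus strand, match 167 bases before 1 of its 3 RefSeq starts, inside the span of the gene given above: ggcgggttTGTTTACaaacaatg
Bcl2l11, chr2:128125803-128125825, plus strand, match 227 bases before 1 of its 2 RefSeq starts: acactaggGTAAACAcgccgggg
A p53 half-site was found in the window of Bax, 201 bases before the start, and in 8.36% of all windows, or 9.55% of genes. Its bases are in capitals.
Bax, chr7:45467082-45467107, minus strand: catatcccAGGCAAGCTTtgaacttg
The E-box CACGTG, a motif that MYC can bind and that reads the same on both strands, was found for Bax and Bbc3 and in 7.15% of all windows, or 8.09% of genes. The motif TGATGNAA of ATF4 and CHOP, the core of the interferon-stimulated response element, TTCNNNGAA of STAT factors and TGANTCA of AP-1 were in 0 of the 9 members and in 3.97%, 3.44%, 8.30% and 7.81% of all windows, or 4.51%, 3.99%, 9.55% and 8.97% of genes. A match describes the letters of the window only.

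The genes whose pattern over the 6 libraries was most like that of the 2 most abundant members were found from log2 values centred on each gene's own mean. For Mcl1 they were Sowahc, Abcc1 and Bcl6, with a root mean square difference of 0.0466, 0.0492 and 0.0581 on the log2 scale. Abcc1 measured 19.6, 14.2 and 16.5 FPKM across the siNC libraries, against 13.5, 14.6 and 25.3 FPKM in siCNN3, highest in siCNN3 replicate 3 as Mcl1 was. For Bax they were Flrt2, Ankrd40 and Kdelc2, with differences of 0.0212, 0.0317 and 0.0337.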

How the data were processed

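The authors deposited FPKM values for 24023 Ensembl transcripts in each of 6 RNA-seq libraries. The submitters' processing notes list Bowtie 0.12.2 and the genome builds mm8 and mm10, without a role for either build. The program that estimated FPKM, its annotation, the strandedness and the read numbers are not given in the sources used here. Values go down to 1e-06 FPKM and 238 transcripts had a 0 in 1 library while a library of that group had at least 10 FPKM, so a 0 can be a failed estimate.

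Identifiers were matched without their version to GENCODE M21 (GRCm38), which matched 23949 transcripts, and FPKM were summed per gene. The 74 unmatched transcripts held 0.159% to 0.220% of the FPKM of a library. Genes whose mean reached 0.5 FPKM were fitted on log2(FPKM + 1) with limma 3.58.1 in R 4.3.3 (mean-variance trend, two-sided, Benjamini-Hochberg adjustment over all tested genes, threshold 0.05), and transcripts likewise. The fit was tested on simulated data. Input to R was read with the package data.table (version 1.17.8). Python 3.11.15 served for sums (pandas 2.3.3, numpy 2.4.6), sequences (Biopython 1.88) and figures (matplotlib 3.10.9). The members and the lists were chosen with earlier results of these data known, and the lists were written from general knowledge. Genes are named where they are members or listed relatives, Cnn3, up to 3 called genes of a list with the largest change (or the gene with the lowest p where none was called), or the 3 genes nearest to the most abundant member of each kind. Other genes named were chosen after their values were seen, and some genes that meet the rule are not reported here. Alternatives were quantile normalization, a fit blocked on replicate number, a pseudocount of 0.1, median-of-ratios scaling, a minimum of 5 FPKM, no minimum, limma without a trend, protein coding transcripts only, each library left out, and other definitions of the pro- and anti-apoptotic sums.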

Additional observations from a re-analysis of the deposited data

How the results depend on the processing

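With each alternative, 0 of the 10 BCL2 family members were called in either direction. The pooled counts of called genes were less stable, at 62 higher and 6 lower genes with the replicate number as a block, 63 lower with median-of-ratios scaling and 93 lower after quantile normalization, and from 16 to 440 higher and 4 to 158 lower with 1 library left out. Called genes were 83.7% higher, against 68.2% after quantile normalization. The direction of Bid, Bbc3, Pmaip1, Bak1 and Bcl2l1 held under every alternative that could be run, while Pmaip1 did not pass the filter at 5 FPKM. After quantile normalization the log2 fold change was -0.0045 for Bcl2 and -0.033 for Mcl1. With 1 library left out it ran from -0.17 to 0.22 for Mcl1, from -0.23 to 0.0088 for Bax, from -0.13 to 0.18 for Bad and from -0.28 to 0.52 for Bcl2l11. The cause was not tested. For Cnn3 it ran from -1.46 to -0.95, and Cnn3 was called without siCNN3 replicate 2. The log2 difference of the pro-apoptotic members was 0.17 from summed FPKM and 0.45 as a mean of log2 values, which weights low genes such as Bbc3 as much as Bax. Deviations of same-numbered libraries from their group means correlated at -0.276, 0.313 and -0.023. Those of siNC replicate 1 and siCNN3 replicate 3 correlated at 0.441, and those of siNC replicate 2 and siCNN3 replicate 3 at -0.445. With 3 libraries a group, these values cannot show whether libraries were paired, so the block on replicate number is given as an alternative only. With it, 2 of the transcription factor genes, 7 of the interferon markers and 0 of the p53 targets were called higher, 2 of the muscle markers lower, and Trib3 was not called. The depth is unknown, so no limit on low genes such as Bcl2l15 can be given.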
